A study of Homo sapiens with 12 samples.

Results

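The 10 RNAs described here are MALAT1 and NEAT1, which organize nuclear bodies, H19 and MEG3, which come from imprinted clusters, and 6 host RNAs of small nucleolar RNAs (snoRNAs): GAS5, SNHG1, SNHG5, SNHG8, SNHG12 and ZFAS1. They were chosen by symbol, and all 10 were found among the 26475 genes of the deposited count table. RNA was sequenced from human ovarian cancer cell lines grown in culture, PA-1 and SK-OV-3, after treatment with DMSO (the solvent control) or BAY-850 at 5 µM, kept on for 48 h, with 3 replicates in each of the 4 groups. BAY-850 is a small molecule that blocks the bromodomain of the chromatin protein ATAD2. PA-1 is a teratocarcinoma line and SK-OV-3 an adenocarcinoma line. The lines grew in different media, so cell line and medium cannot be told apart. The series text and the study call the replicates biological, without saying whether they were separate cultures, and p-values measure the spread between these libraries.

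Long noncoding RNAs act without being translated. MALAT1 lies in nuclear speckles, which store splicing factors, and the long form of NEAT1 is the scaffold on which paraspeckles assemble. H19 is transcribed from the maternal chromosome beside IGF2 and holds a microRNA, miR-675, while MEG3 is the maternal partner of DLK1 on another chromosome. In host genes the introns carry snoRNAs, which guide the chemical modification of ribosomal RNA (rRNA). The spliced exons of several hosts are scanned by ribosomes and removed by nonsense-mediated decay, and many hosts begin with the run of pyrimidines that marks transcripts of ribosomal protein genes.

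The start sites of the hosts are shown because a run of pyrimidines included the starting base at most of them. Each line gives 20 bases before and 25 bases from the RefSeq start (GRCh38.p14), 5′ to 3′ on the transcribed strand. Capitals mark a run of at least 5 bases, each C or T, that includes the starting base, read on the transcribed strand alone.
SNHG12: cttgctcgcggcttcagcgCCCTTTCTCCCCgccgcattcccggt
ZFAS1: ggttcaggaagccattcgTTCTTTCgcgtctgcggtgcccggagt
SNHG5: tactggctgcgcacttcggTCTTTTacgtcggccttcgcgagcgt
SNHG8: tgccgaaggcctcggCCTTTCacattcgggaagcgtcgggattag
SNHG1: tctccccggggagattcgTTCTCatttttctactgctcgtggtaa
GAS5: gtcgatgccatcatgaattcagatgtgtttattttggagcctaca
The windows lie at chr1:28581849-28581893 on the minus strand for SNHG12, chr20:49278622-49278666 on the plus strand for ZFAS1 and chr6:85678709-85678753 on the minus strand for SNHG5. Those of SNHG8, SNHG1 and GAS5 lie at chr4:118278742-118278786 (plus), chr11:62855861-62855905 (minus) and chr1:173869021-173869065 (minus). The run was present in 5 of 6 hosts, against 9.60% of the 35116 RefSeq start windows. The run lay mostly inside the transcript in SNHG12 (11 of 12 bases), SNHG5 (5 of 6) and ZFAS1 (5 of 7), whereas 3 of 5 bases in SNHG1 and 1 of 6 in SNHG8 were transcribed and the rest lay before the start. GAS5 was the host without it, and its RefSeq window lies outside the GENCODE v29 gene, which spans chr1:173863900-173868882. The run was also present at 1 of 2 RefSeq starts of MALAT1, where 1 of its 11 bases was transcribed, and absent at those of H19 and MEG3. No window was at hand for NEAT1. The match describes letters in a window and says nothing of how a transcript is read.

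The 3′ ends of MALAT1 and NEAT1 are shown because capture on oligo-dT depends on runs of A. Neither RNA receives its end from the usual poly(A) machinery: RNase P cuts off a small tRNA-like RNA, and an A-rich stretch encoded in the genome is left at the end of the long RNA. The lines give the 60 bases before the annotated small RNA, with capitals for the longest stretch of A and G that holds at least 5 As. The last 5 bases, caaaa in both, follow it uncapitalized and belong to the same A-rich end.
MALAT1: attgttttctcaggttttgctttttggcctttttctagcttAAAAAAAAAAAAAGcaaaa
NEAT1: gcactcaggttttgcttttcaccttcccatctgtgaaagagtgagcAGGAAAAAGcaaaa
In GENCODE v29 (GRCh38, plus strand) they lie at chr11:65506057-65506116 and chr11:65445481-65445540. The MALAT1 gene spans chr11:65497688-65506516 and NEAT1 chr11:65422774-65445540. NEAT1 also has a short polyadenylated form that shares the 5′ part of the long form, and gene counts do not separate them. The study's methods describe capture on oligo-dT, whereas the series text describes rRNA depletion, and this could not be settled from the counts alone. Random priming is given in both.

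The files measured the spliced hosts and not the snoRNAs. In the 6 hosts, 28 snoRNA genes had a row of their own, and 19 of these had no count in any of the 12 libraries. The 28 rows together held 520.0 counts, which was 0.134% of the 388203 counts of their hosts. SNORD22, in an intron of SNHG1, held 326.0 of them. ZFAS1 carries 3 snoRNAs of the SNORD12 family, and their sequences are given to show what was not captured, with the C box (TGATGA) and the D box (CTGA) in capitals.
SNORD12: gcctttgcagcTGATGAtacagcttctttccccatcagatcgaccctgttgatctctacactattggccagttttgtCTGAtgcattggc
SNORD12B: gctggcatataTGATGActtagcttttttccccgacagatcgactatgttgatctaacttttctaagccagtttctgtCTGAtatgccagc
SNORD12C: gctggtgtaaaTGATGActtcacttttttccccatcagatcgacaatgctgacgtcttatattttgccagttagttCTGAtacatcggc
They lie on the plus strand at chr20:49280683-49280772, chr20:49280319-49280409 and chr20:49278940-49279028 (GENCODE v29). SNORD12B had 14.0 counts over the 12 libraries and the others had 0. The rows of MIR675, inside H19, and MIR770, inside MEG3, were also at 0 in every library. Library preparations for long RNA keep few RNAs of this length, so the snoRNA level itself was not measured.

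The libraries held between 34544505 and 51840233 counts each, and the 10 RNAs took 0.122% to 0.183% of them. Genes of rRNA took 7.94% to 16.9%. The pluripotency markers fixed for PA-1 (6 genes, among them POU5F1, SOX2 and LIN28A) summed to between 1349 and 1619 CPM (counts scaled to library size) in PA-1 and to between 6.19 and 9.46 CPM in SK-OV-3. Of the 6 epithelial markers fixed for SK-OV-3, 5 reached 1 CPM there, and MUC16 did not. In PA-1, 3 of the 6 reached 1 CPM. KRT18 was higher there than in SK-OV-3 (335 against 266 CPM with DMSO), KRT8 was near the SK-OV-3 level (532 against 599 CPM) and ERBB2 was at 61.3 CPM against 2417 CPM, so KRT8 and KRT18 did not set the lines apart as KRT7 and PAX8 did, both below 1 CPM in PA-1. No blood marker reached 1 CPM in any group, and of the 2 fibroblast markers LUM did so in SK-OV-3 alone, with a mean of 6.05 CPM in the controls and 1.26 CPM after treatment. The third SK-OV-3 BAY-850 library had the highest total and the fewest genes with a count, 15629 against 17425 to 18414 in the others. The first SK-OV-3 DMSO library had the highest rRNA share of its line, 15%, and a summed level of 20.3 CPM of listed structured RNAs other than 7SL (RN7SK, RMRP and others), against 5.34 to 8.69 CPM in the other SK-OV-3 libraries.

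Levels ran over several orders of magnitude, and the description "abundant" did not hold for every RNA. Levels between genes were compared as CPM per kilobase of the union of annotated exons. In PA-1 with DMSO, SNHG5 was highest, at 138 ± 17.1 CPM per kilobase (SD, n = 3), followed by GAS5 at 94.1 ± 5.56, SNHG1 at 79.6 ± 3.65 and ZFAS1 at 67.6 ± 7.30. The replicates of SNHG1 and ZFAS1 overlapped, so these neighbours were not separated. MALAT1 followed at 39.3 ± 10.4, SNHG8 at 20.1 ± 2.32, H19 at 7.94 ± 0.971, NEAT1 at 5.61 ± 0.305, SNHG12 at 2.75 ± 0.392 and MEG3 at 0.0823 ± 0.0348 CPM per kilobase. Among the 18273 annotated genes with a count in this group, SNHG5 ranked 215 and MEG3 ranked 14925, with SNHG12 near the middle at rank 8890. Over the longest annotated transcript, ZFAS1 (141 CPM per kilobase) stood above SNHG1 (108) without overlap, and SNHG12 (5.88) and NEAT1 (5.62) overlapped. The NEAT1 value was divided by 22.8 kilobases, which covers the long form, and is too low where reads come from the short form.

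**Figure D1:**
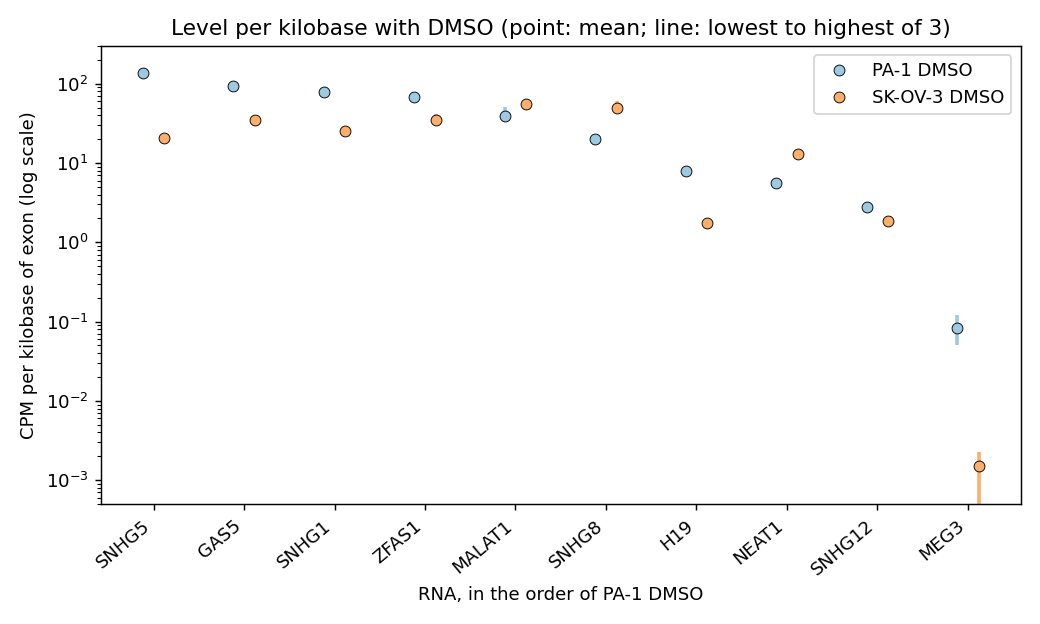
Level of each RNA with DMSO as CPM per kilobase of exon, on a log axis, in PA-1 and SK-OV-3; points are means of 3 libraries and lines run from the lowest to the highest. SNHG5, GAS5, SNHG1 and ZFAS1 led in PA-1, whereas MALAT1 and SNHG8 led in SK-OV-3, where MEG3 was near 0 and its line runs off the axis because 1 library had no count.

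In SK-OV-3 with DMSO the order differed. MALAT1, at 55.9 ± 2.56 CPM per kilobase, and SNHG8, at 49.4 ± 10.1, stood at the top with overlapping replicates. ZFAS1 (35.2 ± 5.77) and GAS5 (34.6 ± 4.42) overlapped too, followed by SNHG1 at 25.1 ± 0.655, SNHG5 at 20.6 ± 1.66 and NEAT1 at 13.1 ± 0.628. SNHG12 (1.84 ± 0.141) and H19 (1.75 ± 0.212) were not separated, and MEG3 was last. The order rests on the length used. Over the longest annotated transcript, GAS5 (74.0 CPM per kilobase), ZFAS1 (73.4) and SNHG8 (67.9) stood above MALAT1 (56.7) in this group, since the exon unions of the hosts are longer than any 1 transcript.

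The lines were compared with DMSO to ask how the 10 RNAs differed before treatment. All 10 passed an adjusted p of 0.05, 7 higher in PA-1 and 3 higher in SK-OV-3, and the replicates of the lines did not overlap for any of them. These shares are read against a background in which 40.2% of the 16070 genes tested were higher in PA-1, 40.1% were lower, and 82.3% did not overlap. The shift in SNHG5 was the largest among the hosts. Its level was 442 CPM, 373 CPM and 350.3 CPM in the PA-1 libraries and 63.3 CPM, 55.5 CPM and 55.0 CPM in those of SK-OV-3, a log2 difference of 2.75 (SE 0.091, adjusted p = 1.88e-11) or 6.72-fold. In bulk RNA, fewer expressing cells and less RNA per cell cannot be told apart.

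The other hosts higher in PA-1 were SNHG1, GAS5, ZFAS1 and SNHG12. SNHG1, host of 8 snoRNAs listed here, was 3.18-fold higher (log2 1.67, SE 0.056). GAS5, which in spliced form can bind the glucocorticoid receptor, was 2.72-fold higher (log2 1.45, SE 0.083). ZFAS1, an RNA that starts beside ZNFX1 on the other strand, was 1.92-fold higher (log2 0.94, SE 0.11), and SNHG12 1.5-fold higher (log2 0.58, SE 0.14, adjusted p = 0.0021). SNHG8 went the other way. It was measured at 21.0 CPM, 17.4 CPM and 17.2 CPM in PA-1 and at 56.4 CPM, 40.1 CPM and 40.3 CPM in SK-OV-3, where it was 2.46-fold higher (log2 −1.30 for PA-1 against SK-OV-3, SE 0.13, adjusted p = 1.28e-06). Without the first SK-OV-3 DMSO library this difference was −1.12.

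Other host genes were read from lists fixed for this comparison, against 40.2% of all genes higher in PA-1 and 40.1% lower. Of the 16 other noncoding hosts tested, 12 were higher in PA-1 and 1 lower, with a median log2 difference of 0.94 against −0.0019 over all genes. DANCR (log2 3.05, SE 0.14), LRRC75A-AS1 (2.07, SE 0.069) and C6orf48 (1.60, SE 0.070) had the smallest p among them, and SNHG10 was lower (−0.65, SE 0.24). Of 29 protein-coding hosts, most of them genes of ribosomal proteins and translation factors, 23 were higher in PA-1 and 3 lower, with a median of 1.04. They included RPL5 (2.20, SE 0.061), RPSA (2.12, SE 0.069) and RPL3 (1.48, SE 0.056). Of the 8 proteins of snoRNA particles, 4 were higher, led by the methyltransferase FBL (1.2, SE 0.072), and 2 were lower, NOP56 (−0.38, SE 0.060) and DKC1 (−0.18, SE 0.060).

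Both imprinted RNAs were higher in PA-1. H19 was measured at 25.5 CPM, 23.5 CPM and 19.98 CPM in PA-1 and at 5.33 CPM, 5.53 CPM and 4.38 CPM in SK-OV-3 (log2 2.18, SE 0.14, adjusted p = 9.51e-09). Its neighbour IGF2, a fetal growth factor gene, was at 3.24 ± 0.559 CPM in PA-1 and 0.473 ± 0.251 CPM in SK-OV-3 (n = 3 each). Of the 5 other genes of the H19 cluster, 3 were higher in PA-1 (IGF2, CDKN1C and PHLDA2) and 2 lower, KCNQ1 (−1.07, SE 0.22) and KCNQ1OT1 (−1.59, SE 0.21). MEG3 had 96.0, 53.0 and 63.0 counts in the PA-1 DMSO libraries and 0, 2 and 2 in those of SK-OV-3. The ratio of the summed levels was 53.5, with an exact 95% interval of 20.6 to 198 that covers counting error only. DLK1, the paternally expressed gene of the same cluster, was at 74.8 ± 1.91 CPM in PA-1 and had 5 counts in all in the SK-OV-3 DMSO libraries, DIO3 had 71.0 counts against 0, and MEG8 had none in either line. The log2 difference of RTL1 between the lines was 0.06 (SE 0.57, adjusted p = 0.92). The nuclear RNAs were the other way round. NEAT1 was 2.33-fold higher in SK-OV-3 (log2 −1.22 for PA-1 against SK-OV-3, SE 0.060, adjusted p = 8.77e-10) and MALAT1 1.42-fold higher (log2 −0.50, SE 0.13, adjusted p = 0.0035).

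The next comparison asked which of these RNAs changed with BAY-850 in each line. In SK-OV-3, NEAT1 and SNHG1 were upregulated and H19 was downregulated, 3 of the 9 RNAs tested, against a background of 10.8% of 15348 genes higher and 9.56% lower. In PA-1, 0 of 10 passed the test, against 4.65% of 15212 genes higher and 2.48% lower. That split depended on the scaling, with 707 genes higher and 378 lower in the fit used here but 235 and 231 when scaled by library size alone. At an unadjusted p under 0.05, NEAT1 alone passed in PA-1. DESeq2 called 1 of the 10 in PA-1 (NEAT1) and limma-voom called 0. MEG3, with 4 counts in each SK-OV-3 group, was under the filter on low counts in that line.

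**Figure D2:**
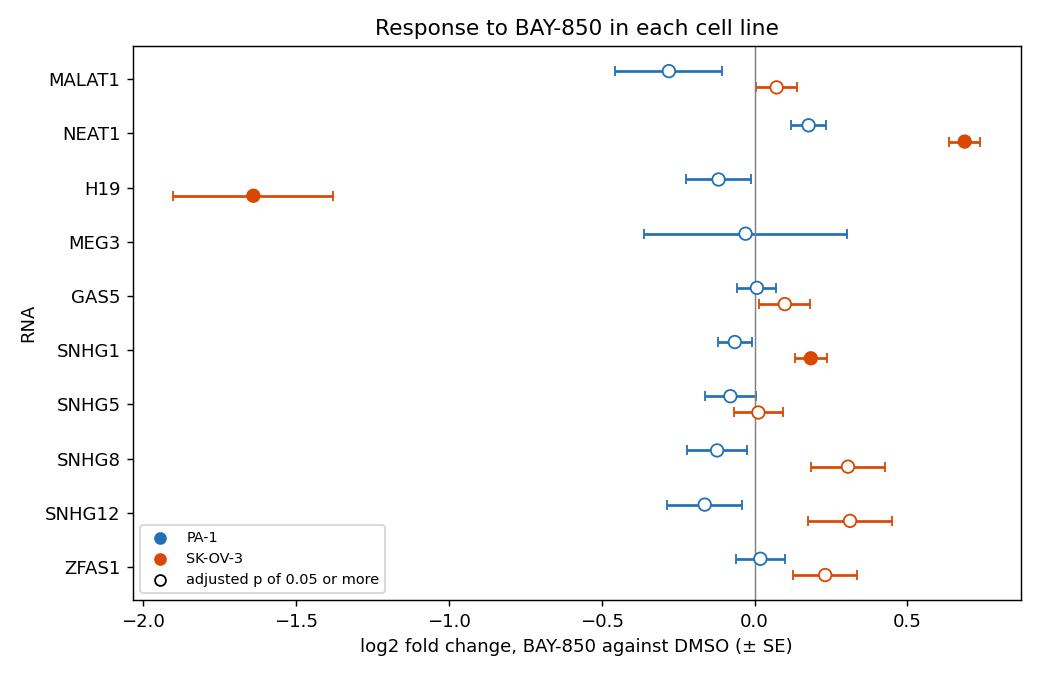
Log2 fold change of each RNA with BAY-850 against DMSO (x axis, ± SE) in PA-1 and SK-OV-3; filled points passed an adjusted p of 0.05. NEAT1, at 0.69, and H19, at −1.64, stand apart in SK-OV-3, and no PA-1 point is filled.

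NEAT1 rose in SK-OV-3. The DMSO libraries held 284 CPM, 299 CPM and 312 CPM, and the BAY-850 libraries 482 CPM, 497 CPM and 450.3 CPM. The groups did not overlap, and the lowest treated library stood well above the highest control. The change was 1.61-fold (log2 0.69, SE 0.051, adjusted p = 4.08e-06), and it passed under each of the alternatives run, between 0.66 and 0.82 on the log2 scale. In PA-1 the levels were 129 CPM, 120.0 CPM and 134 CPM in the controls and 143 CPM, 146 CPM and 144 CPM after treatment. These groups did not overlap either, as was so for 27.5% of genes tested in that line, but the difference of 0.18 (SE 0.058) had an adjusted p of 0.0775. It passed under 2 of the 18 settings run, with DESeq2 (adjusted p = 0.0258) and with a trend over GC content removed. With a trend over gene length removed it was 0.06 (adjusted p = 0.57). The difference between the lines was tested by an interaction term, and the response in PA-1 was smaller by 0.50 on the log2 scale (interaction −0.50, SE 0.078, adjusted p = 5.66e-04).

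**Figure D3:**
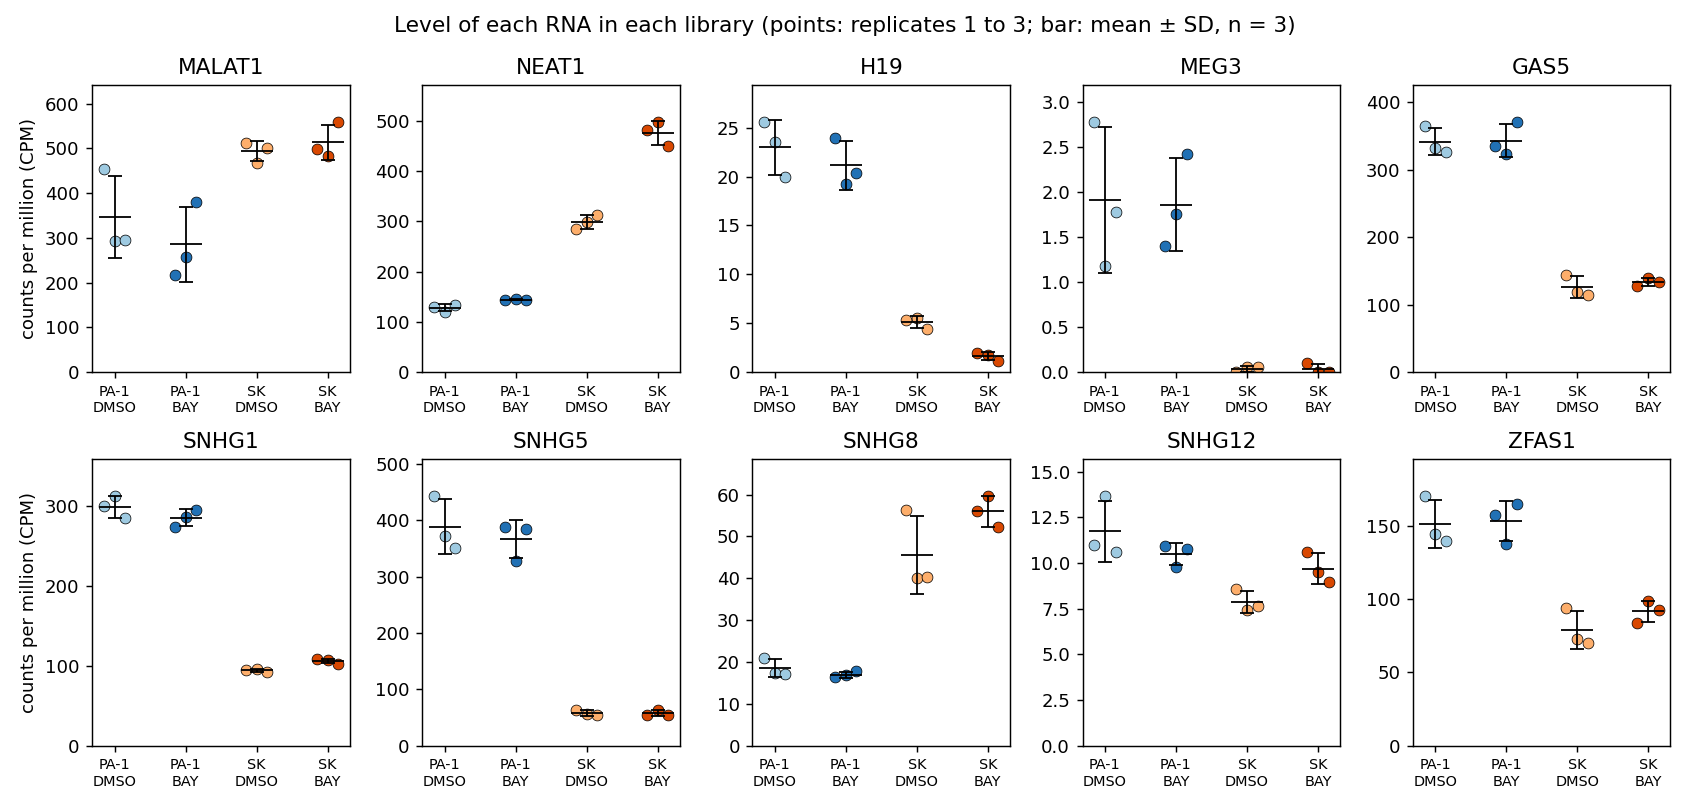
CPM of each of the 10 RNAs in each library (y axis, linear from 0) for the 4 groups; points are replicates and the bar is the mean ± SD of 3. NEAT1 in SK-OV-3 with BAY-850 lies above 450 CPM in every library and H19 lies below 2 CPM, whereas MALAT1 spans 218 to 453 CPM in PA-1.

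MALAT1 did not pass the test in either line. In PA-1 the DMSO libraries held 453 CPM, 294 CPM and 295 CPM and the treated libraries 218 CPM, 258 CPM and 380.2 CPM, so the groups overlapped. The difference of −0.28 had an interval of 2 SE to either side from −0.63 to 0.07 (adjusted p = 0.36). It passed under 2 of the 18 settings run, without the third BAY-850 library of PA-1 (−0.54, adjusted p = 0.0381) and with no filter on low counts (−0.28, adjusted p = 0.0342), and without the first DMSO library it was −0.04. In SK-OV-3 the levels were 511 CPM, 468 CPM and 502 CPM in the controls and 499.6 CPM, 483 CPM and 558 CPM after treatment (log2 0.07, interval −0.06 to 0.20). In each of the 4 groups the library with the highest rRNA share also had the highest MALAT1 level. The same was so in 3 of the 4 groups for GAS5, SNHG8 and ZFAS1, and in 2 or fewer for the other RNAs. The part of rRNA content in these values was not tested.

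Genes for proteins of the bodies in which MALAT1 and NEAT1 lie were read from fixed lists. Over all genes tested, 10.8% were higher and 9.56% lower in SK-OV-3, and 4.65% and 2.48% in PA-1. The interaction passed for 14.5%. Of 8 nuclear speckle proteins, 4 fell and 0 rose in SK-OV-3, among them the splicing factors SRSF5 (−0.58, SE 0.068, adjusted p = 1.32e-04), SRSF2 (−0.40, SE 0.050) and SRSF1 (−0.37, SE 0.053). The list's median was −0.23, against −0.0091 over all genes. In PA-1, 1 of 8 rose, the speckle scaffold SRRM2 (0.48, SE 0.095, adjusted p = 0.00795), with counts of 0 without the second DMSO library and of 2 without the third DMSO or the third BAY-850 library, and DESeq2 called 3. The interaction term passed for 5 of 8, all with the higher response in PA-1. Of 8 paraspeckle proteins, 2 fell in SK-OV-3, among them NONO (−0.19, SE 0.041, adjusted p = 0.00779), and 0 passed in PA-1, where 3 had an unadjusted p under 0.05, DESeq2 called 1 and limma-voom 0. The paraspeckle count in SK-OV-3 was 0 without the second DMSO library, 2 without the third and 1 without any of the other 4 libraries. The NONO call held under 17 of 18 settings.

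H19 fell in SK-OV-3. It was at 5.33 CPM, 5.53 CPM and 4.38 CPM in the controls and at 1.94 CPM, 1.75 CPM and 1.17 CPM after treatment, with no overlap. The counts behind these values were 212 to 168.6 and 79.3 to 63.0 per library, and some were not whole numbers, since reads shared between genes had been split. MRPL23, a mitochondrial ribosomal protein gene annotated over H19, was more highly counted in SK-OV-3, at 42.3 ± 3.46 CPM in the controls and 35.8 ± 1.77 CPM after treatment (log2 −0.23, SE 0.079, adjusted p = 0.0639), so H19 values are less certain where the strand setting of the counting is not known. H19 was 3.12-fold lower with BAY-850 (log2 −1.64, SE 0.26, adjusted p = 0.0012), and it passed in the same direction under each of the alternatives run, between −1.79 and −1.46. In PA-1, H19 in the treated libraries was at 24.0 CPM, 19.2 CPM and 20.3 CPM, beside the DMSO levels given above. These groups overlapped (log2 −0.12, interval −0.33 to 0.09, adjusted p = 0.54). The interaction term was 1.54 (SE 0.24, adjusted p = 6.66e-04), the larger decrease being that of SK-OV-3, the line with the lower H19 level.

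The microRNAs that H19 encodes are shown because they are a known product of this RNA; the seed, bases 2 to 8, is in capitals (RefSeq, GRCh38.p14, minus strand).
miR-675-5p: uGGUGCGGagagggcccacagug
miR-675-3p: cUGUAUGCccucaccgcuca
They lie at chr11:1996800-1996822 and chr11:1996768-1996787, inside the H19 gene at chr11:1995176-2001470 (minus strand, GENCODE v29), and do not share a seed. The row of MIR675 held no count in any library, so miR-675 was not measured and the change is known for the long RNA only.

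Other genes of the H19 cluster did not move together. CDKN1C, an imprinted inhibitor of the cell cycle, rose in both lines, from 29.2 ± 2.64 to 68.7 ± 5.14 CPM in PA-1 (log2 1.24, SE 0.079, adjusted p = 1.19e-07) and from 21.7 ± 1.60 to 34.2 ± 1.26 CPM in SK-OV-3 (log2 0.67, SE 0.086, adjusted p = 2.65e-04). Its rise was larger in PA-1 (interaction 0.58, SE 0.12, adjusted p = 0.00409). PHLDA2, a growth regulator of the placenta, fell in SK-OV-3 (−0.45, SE 0.095, adjusted p = 0.00631) and was at −0.04 in PA-1 (adjusted p = 0.80). IGF2 was at 0.402 CPM, 0.265 CPM and 0.752 CPM in the controls and at 0.763 CPM, 0.853 CPM and 1.71 CPM after treatment in SK-OV-3, which did not pass (log2 1.25, SE 0.61, adjusted p = 0.18). KCNQ1 and KCNQ1OT1 did not pass in either line. In the MEG3 cluster, MEG3 itself was at 2.78 CPM, 1.18 CPM and 1.78 CPM in the controls and at 1.41 CPM, 1.75 CPM and 2.42 CPM after treatment in PA-1 (log2 −0.03, SE 0.33, adjusted p = 0.97). Its interval ran from −0.69 to 0.63, and changes inside it remain compatible with these low counts. No gene of that cluster passed in PA-1, where 4 were tested and 0 had an unadjusted p under 0.05 and DESeq2 and limma-voom called 0. The 1 tested in SK-OV-3, RTL1, did not pass either.

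Among the hosts, SNHG1 was the 1 that passed in SK-OV-3. It was at 94.3 CPM, 96.7 CPM and 91.8 CPM in the controls and at 108 CPM, 107 CPM and 103 CPM after treatment, with no overlap. The increase was 1.14-fold (log2 0.18, SE 0.053, adjusted p = 0.0317). It was no longer past the threshold when either SK-OV-3 DMSO library 2 or 3, or BAY-850 library 1 or 2, was left out, with adjusted p between 0.0791 and 0.12, although the log2 value stayed between 0.17 and 0.20. In PA-1 SNHG1 was at 299.6 CPM, 312 CPM and 285 CPM and at 274 CPM, 287 CPM and 296 CPM, and the groups overlapped (log2 −0.06, interval −0.18 to 0.05). The interaction term was −0.24 (SE 0.071, adjusted p = 0.0359), and it passed under 13 of 23 settings.

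All 6 hosts had log2 values above 0 in SK-OV-3, from 0.01 to 0.31, whereas 2 of 6 did in PA-1. The median over all genes was −0.0019 in PA-1 and −0.0091 in SK-OV-3. The sign of SNHG5 in SK-OV-3 depended on the setting (−0.052 to 0.087). SNHG12 was at 8.55 CPM, 7.41 CPM and 7.65 CPM in the controls and at 10.6 CPM, 9.50 CPM and 8.96 CPM after treatment (log2 0.31, SE 0.14, adjusted p = 0.13). Its groups did not overlap. Non-overlap held for 4 of the 10 RNAs in SK-OV-3 and for 38.6% of the genes tested there. SNHG8, ZFAS1 and GAS5 overlapped through the first DMSO library alone. SNHG8 was at 56.4 CPM in that library and at 40.1 CPM and 40.3 CPM in the other DMSO libraries, against 56.1 CPM, 59.6 CPM and 52.1 CPM with BAY-850. ZFAS1 was at 93.8 CPM, 72.8 CPM and 70.2 CPM in the controls and at 84.1 CPM, 98.5 CPM and 92.8 CPM after treatment. GAS5 was at 144 CPM, 119 CPM and 114 CPM and at 128 CPM, 139 CPM and 133 CPM. In all of these the first DMSO library was the highest of the controls.

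**Figure D4:**
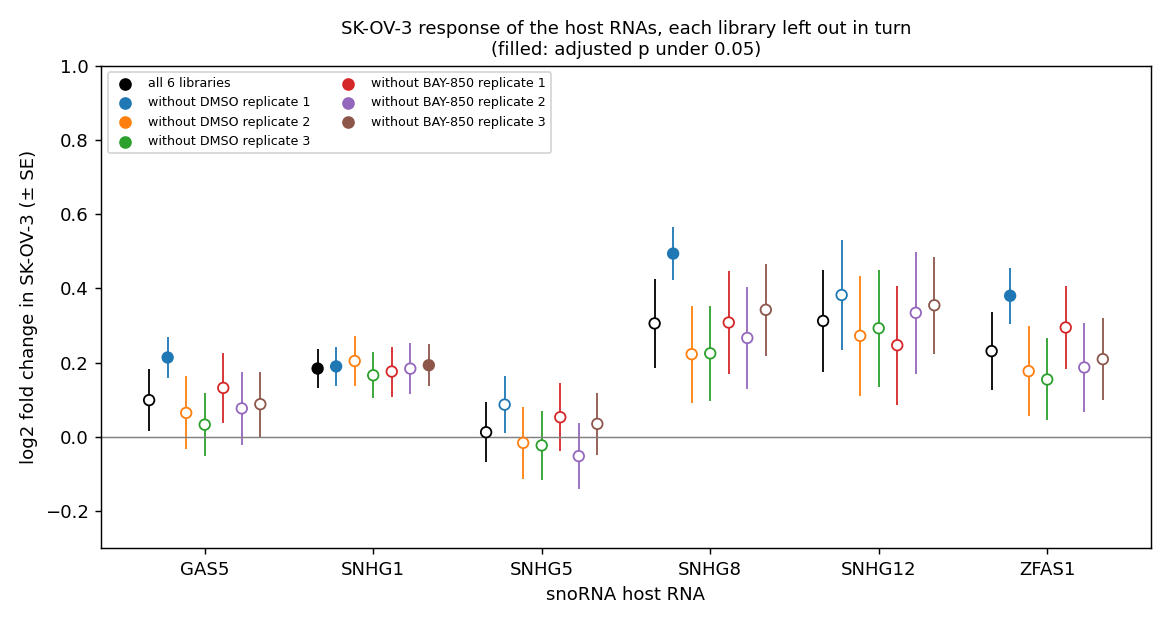
Log2 fold change of the 6 host RNAs in SK-OV-3 (y axis, ± SE) with all 6 libraries and with each library left out in turn; filled points passed an adjusted p of 0.05. Without DMSO replicate 1, SNHG8 (0.49), ZFAS1 (0.38) and GAS5 (0.21) pass together with SNHG1. ZFAS1 and GAS5 passed in this fit alone.

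With all libraries SNHG8 was at 0.31 (SE 0.12, adjusted p = 0.0967, passing under 4 of 18 settings), ZFAS1 at 0.23 (SE 0.10, adjusted p = 0.15) and GAS5 at 0.10 (SE 0.083, adjusted p = 0.45). Without the first DMSO library, 6 of the 9 RNAs tested passed in place of 3. In that fit 1575 of the 15678 genes tested were higher and 1358 lower, against 1662 and 1468 of 15348 with all libraries. SNHG8 was then at 0.49 (adjusted p = 0.00172), ZFAS1 at 0.38 (adjusted p = 0.00877) and GAS5 at 0.21 (adjusted p = 0.0279), with NEAT1 at 0.66, SNHG1 at 0.19 and H19 at −1.60. ZFAS1 and GAS5 each passed under 1 of 18 settings, the fit without the first DMSO library. SNHG5 stayed at 0.09 (adjusted p = 0.49) and SNHG12 at 0.38 (adjusted p = 0.11). This is the library with the high rRNA share and the high level of structured RNAs given above, and the part of these in the host levels was not tested. SNHG5 itself was nearly level, at 63.3 CPM, 55.5 CPM and 55.0 CPM in the controls and at 54.9 CPM, 63.7 CPM and 55.1 CPM after treatment (log2 0.01, interval −0.15 to 0.17).

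In PA-1 the 6 hosts lay between −0.16 and 0.02 on the log2 scale, with overlapping groups throughout. GAS5 was at 365 CPM, 333 CPM and 327 CPM in the controls and at 335 CPM, 323 CPM and 370.5 CPM after treatment (log2 0.01, interval −0.12 to 0.14). SNHG5 was at −0.08 (interval −0.24 to 0.09), SNHG8 at −0.12 (−0.32 to 0.08), SNHG12 at −0.16 (−0.41 to 0.08) and ZFAS1 at 0.02 (−0.14 to 0.18). Changes inside these intervals remain compatible with the 3 libraries a group. The interaction terms of SNHG8 (−0.42, SE 0.17, adjusted p = 0.12) and SNHG12 (−0.46, SE 0.20, adjusted p = 0.13) did not pass. In all, the interaction passed for 3 of 10 RNAs, NEAT1, H19 and SNHG1, against 14.5% of the 16830 genes tested.

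Among 17 other noncoding hosts, 2 rose in SK-OV-3 and 0 fell. The shares over all genes tested were 4.65% higher and 2.48% lower in PA-1, and 10.8% and 9.56% in SK-OV-3. The 2 of 17 in SK-OV-3 stood near that 10.8%. C6orf48 rose from 88.5 ± 7.47 to 112 ± 7.27 CPM (log2 0.35, SE 0.071, adjusted p = 0.00518) and EPB41L4A-AS1 from 16.3 ± 1.29 to 21.7 ± 1.08 CPM (log2 0.43, SE 0.10, adjusted p = 0.0116). Without the first SK-OV-3 DMSO library 4 of the 17 rose, and without the second or the third 1 did. In PA-1, 0 of the 17 passed with edgeR, DESeq2 or limma-voom, and 4 had an unadjusted p under 0.05. Of 29 hosts that encode proteins, 5 fell in SK-OV-3, among them EEF1B2 (−0.31, SE 0.071), NCL (−0.20, SE 0.047) and RPL7A (−0.19, SE 0.050), and TPT1 rose (0.19, SE 0.050). Without the first DMSO library 5 of 29 rose and 5 fell, without the second or the third 0 rose and 2 fell, and without the first or the second BAY-850 library 1 rose and 1 fell. In PA-1, 2 of 29 fell, HSPA8 (−0.21, SE 0.047) and RPL21 (−0.22, SE 0.063), and 0 rose. That count was 0 without the first or the second PA-1 DMSO library or the second BAY-850 library, 1 without the first BAY-850 library and 5 without the third. Of the 8 proteins of snoRNA particles, NHP2 (−0.26, SE 0.067) and NOP56 (−0.18, SE 0.052) fell in SK-OV-3 and NOP58 (−0.32, SE 0.068) fell in PA-1. NOP56 passed under 12 of 18 settings, NHP2 under 17 and NOP58 under 14. In SK-OV-3 0 fell without the second DMSO library, 1 without the third DMSO or the first or second BAY-850 library, and 3 without the third BAY-850 library, while 1 rose and 2 fell without the first DMSO library. In PA-1 0 fell without the first or the second DMSO library or the second BAY-850 library. Of 10 factors of nonsense-mediated decay, which removes several spliced hosts, SMG6 rose in PA-1 (0.24, SE 0.067, adjusted p = 0.0433). It passed under 8 of 18 settings, and the count in PA-1 was 0 without the first or the second library of either group and 2 without the third of either. Of the same factors, 0 passed in SK-OV-3, where 0 had an unadjusted p under 0.05 and DESeq2 and limma-voom called 0.

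Of 13 other long noncoding RNAs tested in SK-OV-3, 3 fell and 0 rose, and 2 fell when any of 4 single libraries was left out. Over all genes tested there, 9.56% were lower and 10.8% higher. The 3 RNAs that fell were TUG1 (−0.31, SE 0.053, adjusted p = 0.00201), the miR-22 host MIR22HG (−0.57, SE 0.12) and LINC-PINT (−0.65, SE 0.18). In PA-1, 0 of 12 passed, 2 had an unadjusted p under 0.05, DESeq2 called 1 and limma-voom 0. Of the structured RNAs without a poly(A) tail, 0 of 8 passed in SK-OV-3, where 0 had an unadjusted p under 0.05, and 0 of 6 in PA-1, where 1 did. DESeq2 and limma-voom called 0 in both lines.

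Some of the 10 genes share their place with protein-coding genes. SNHG1 and SLC3A2, a subunit of amino acid transporters, start within 1000 bases of each other on opposite strands, and SLC3A2 rose in SK-OV-3 too, from 493 CPM, 461 CPM and 456 CPM to 597 CPM, 588 CPM and 492 CPM (log2 0.26, SE 0.065, adjusted p = 0.015). The lowest treated library lay just under the highest control. ZFAS1 and ZNFX1, a helicase gene of antiviral defence, are likewise paired. ZNFX1 rose in SK-OV-3 from 67.7 CPM, 70.5 CPM and 70.9 CPM to 107 CPM, 106 CPM and 96.6 CPM (log2 0.58, SE 0.058, adjusted p = 4.14e-05), and in PA-1 it was at 0.27 (SE 0.091, adjusted p = 0.0813). ZNFX1 and ZFAS1 differed between lines in opposite directions, ZNFX1 being lower in PA-1 (log2 −2.16, SE 0.070). PRSS12, which lies within 1000 bases of SNHG8, was lower after treatment in SK-OV-3 without passing (log2 −0.63, SE 0.21, adjusted p = 0.0579). SNHG8 itself was at 0.31 there, which did not pass either (adjusted p = 0.0967). SNHG12 overlaps TRNAU1AP, which was more highly counted (17.2 to 25.3 CPM) than SNHG12, and the strand setting of the counting is not given in the sources used here, so SNHG12 values are less certain. GAS5 overlaps ZBTB37 and GAS5-AS1, which reached at most 2.85 CPM and 0.534 CPM, whereas GAS5 was at 114 CPM or more.

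For 8 of the RNAs the gene with the most similar levels over the 12 libraries was named by Pearson's r of log2 CPM among 14092 genes with a mean of at least 1 CPM. The 12 libraries fall into the pair of lines, which sets most of each r, and the values are descriptions with no test. SNHG5 was most like RPL3 (r = 0.999), a gene of the large ribosomal subunit. SNHG1 was most like CCNG1 (r = 0.999), NEAT1 most like TRIM33 (r = 0.996), H19 most like RFC3 (r = 0.995) and SNHG8 most like DYNLT1 (r = 0.994). ZFAS1 was paired with CHCHD6 (r = 0.988), MALAT1 with NPIPB15 (r = 0.978) and SNHG12 with PDE9A (r = 0.919), and MEG3 was too low to be ranked.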

How the data were processed

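RNA from 12 samples of PA-1 and SK-OV-3 cells was sequenced. The authors deposited a table of RSEM expected counts per gene symbol (Bowtie2 2.1.0, RSEM 1.2.15 and hg38 per the labels); the gene annotation, strand setting and read filters are not given in the sources used here. Expected counts split reads that fit several genes, which affects overlapping genes. Counts were rounded, filtered with filterByExpr, scaled by TMM and tested with edgeR 4.0.16 (quasi-likelihood, R 4.3.3), per line, between lines with DMSO, and for the interaction over 12 libraries, with Benjamini-Hochberg adjustment over all genes tested. CPM in the text uses TMM over 12 libraries. Intervals are 2 SE to either side. Symbols were matched to GENCODE v29 for position and length (1805 of 26475 unmatched). The code was tested on simulated counts. DESeq2 1.42.0 and limma 3.58.1 were alternatives. Named genes were the 10 RNAs, up to 3 genes with the smallest p per list, line and direction, neighbours, imprinted cluster genes, and the gene most like each RNA. Some results that this rule selects are not reported here. The 10 RNAs, lists and rules were chosen with earlier results of these data known. Depth was 34544505 to 51840233 counts a library.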

Additional observations from a re-analysis of the deposited data

Results flagged for a closer look

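The response to BAY-850 differed between the lines for 3 of the 10 RNAs by the interaction term of the edgeR fit over 12 libraries. That term passed for 14.5% of the 16830 genes tested. For H19 the response in PA-1 minus that in SK-OV-3 was 1.54 on the log2 scale (SE 0.24, adjusted p = 6.66e-04): the level fell in SK-OV-3 in 3 of 3 treated libraries and overlapped with the control in PA-1. For NEAT1 it was −0.50 (SE 0.078, adjusted p = 5.66e-04), with an increase in 3 of 3 treated libraries in SK-OV-3, whereas the difference of 0.18 in PA-1 did not pass (adjusted p = 0.0775). For SNHG1 it was −0.24 (SE 0.071, adjusted p = 0.0359), and this call was lost under several alternatives. Groups of 3 libraries were too small for a test of outlying libraries.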

How the results depend on the processing

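NEAT1 and H19 in SK-OV-3, the interaction terms of these RNAs, and all 10 RNAs between the lines stayed past the threshold and kept their direction under every alternative in which they were tested. Over 4 comparisons, 652 of 711 recomputed values of the 10 RNAs kept direction and call, 16 lost a call, 11 gained one and 32 changed sign, each of the latter with an adjusted p of 0.647 or more. The count of genes called in PA-1, 1085 in the fit used here, was 1737 with DESeq2, 615 with a trend over GC content removed, 683 with all 12 libraries in one fit and 466 when scaled by library size alone. Scaled by library size without rRNA, 544 genes were higher and 505 lower. Of the 10 RNAs, NEAT1 was called higher in PA-1 with DESeq2 and with the GC trend removed, and MALAT1 was called lower with no filter. Leaving out 1 library gave 340 to 1228 genes in PA-1, with 340 without DMSO replicate 2, 344 without BAY-850 replicate 2 and 489 without DMSO replicate 1. In SK-OV-3 it gave 1781 to 3902 (3130 with all), with 1781 without DMSO replicate 2 and 1983 without DMSO replicate 3, and 0 to 1 (PA-1) and 2 to 6 (SK-OV-3) of the RNAs were called.

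Replicate numbers recur in every group, but same-numbered libraries did not deviate together (r between −0.084 and 0.117), so the numbers were not taken to pair the libraries. With a replicate block, 931 genes were called in PA-1, 2716 in SK-OV-3, 1957 for the interaction and 12830 between lines, and 0, 2, 2 and 10 of the RNAs, with SNHG1 the call lost in SK-OV-3 (adjusted p = 0.0614) and in the interaction (adjusted p = 0.0716).

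Signs changed for values near 0, and the cause was not tested. In PA-1, GAS5 was −0.032 when scaled by library size alone and −0.013 without rRNA, ZFAS1 was −0.032 with the GC trend removed, −0.019 by library size alone and −0.0012 without rRNA, and MEG3 was 0.057 with limma-voom and 0.014 with the block. SNHG5 in SK-OV-3 was −0.00011 with all 12 libraries in one fit and −0.031 with a length trend removed, under which the interaction terms of MEG3 and SNHG5 were −0.029 and 0.036. With 1 library left out, values in PA-1 ran from −0.052 to 0.056 for GAS5, from −0.29 to 0.34 for MEG3, from −0.15 to 0.024 for SNHG5 and from −0.037 to 0.11 for ZFAS1. In SK-OV-3 they ran from −0.0061 to 0.12 for MALAT1 and from −0.052 to 0.087 for SNHG5, and the interaction terms from −0.49 to 3.57 for MEG3 and from −0.15 to 0.023 for SNHG5. SNHG1 in SK-OV-3 also lost its call when scaled by library size alone (adjusted p = 0.0992). With 3 libraries a group, the spread and the low counts of MEG3 limit what can be detected.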
